A study of Xenopus laevis with 72 samples.

Results

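The genes described here are the proteasome genes of *Xenopus laevis*, chosen by name: every gene entry whose symbol starts with psma, psmb, psmc, psmd, psme or psmg followed directly by a digit. The rule found 83 of 39668 gene entries, 44 on L and 39 on S chromosomes, the 2 parental genomes that this allotetraploid frog carries. They stand for 48 gene names, of which 35 have both an L and an S copy (homeologs) and 13 a single entry. All 83 matched a protein-coding gene of the RefSeq annotation of assembly v10.1, from which the gene coordinates are taken. The letters of the rule also take in psmc3ip.L and psme3ip1.S, which are named for partners of proteasome proteins and are not subunits, and psmb7.2.L, to which no role is given here.

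The libraries came from whole embryos of a study of Kmt2b, a histone H3 lysine 4 methyltransferase, and Cxxc1, a CpG-binding partner of such enzymes, around the start of zygotic transcription. Each embryo group was injected at the 1-cell stage with 9.2 nl of a 1 mM antisense morpholino that blocks translation of both homeologs of kmt2b (Kmt2b MO) or cxxc1 (Cxxc1 MO), or with a standard control morpholino (Ctrl MO), or was left without injection (NI Ctrl). All embryos were kept at 18 °C and taken at 5.5, 6.5 or 7.5 hours post fertilization (hpf). There were 2 biological replicates from different frogs, each with 3 sets of 3 embryos per group and time point, so 72 libraries in all. Because the morpholinos act on translation, mRNA levels do not check the knockdown, and p-values measure the spread between sets of embryos from 2 frogs.

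The proteasome is the barrel-shaped protease that degrades proteins tagged with ubiquitin. Its 20S core has outer rings of alpha subunits (psma), which gate the entrance, and inner rings of beta subunits (psmb), some of which carry the cutting sites. The 19S cap recognizes ubiquitin, removes it and unfolds the substrate with a ring of ATPases (psmc) among non-ATPase subunits (psmd), while psmg and a few psmd proteins are chaperones of assembly and psme proteins are alternative caps. In an embryo that starts with a store of maternal mRNA and protein, the proteasome takes part in clearing maternal proteins while the zygotic genome is switched on.

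Levels are given as mRNA TPM, the deposited TPM (a length-normalized share of transcripts) rescaled so that the protein-coding genes of a library sum to 1000000. This was done because protein-coding genes held between 47.9% and 88.4% of the deposited TPM of a library and tRNA genes between 0.0214% and 25.1%. Read depth is unknown from TPM, so no counting interval is given. In whole embryos, fewer cells of a type and less RNA per cell cannot be told apart. Replicate libraries of a group correlated with r from 0.987 to 0.996 over genes. Of 17 zygotic marker genes, 16 rose between 5.5 and 7.5 hpf in NI Ctrl and 0 fell, whereas of 13 maternal marker entries 0 rose and 11 fell. Of all tested genes, 8.72% rose and 81.5% fell, so the maternal markers fell about as often as genes in general. At 7.5 hpf, 11 of the 17 zygotic markers were lower in Kmt2b MO than in Ctrl MO (1.57% of all genes) and 9 were lower in Cxxc1 MO (0.955%). Of 15 entries for stress and p53 targets, 0 were higher and 0 lower in Kmt2b MO and 1 was lower in Cxxc1 MO at that time. Entries for globins and alas2, markers of red blood cells, reached at most 1.74 mRNA TPM in any library, while the other blood marker listed, epb41.L, lay between 32.0 and 70.3.

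Proteasome mRNAs were present in every library. Summed over the 83 entries they made up between 0.288% and 0.402% of mRNA, or 2884 to 4021 mRNA TPM. In NI Ctrl embryos the median entry averaged 38.2 mRNA TPM, with quartiles of 16.5 and 61.5, and 66 of the 83 entries averaged at least 10. The highest was psmb6.L, a catalytic beta subunit, at 129 mRNA TPM, followed by the 19S subunits psmd13.S at 120 and psmd12.S at 116. The lowest core subunit was psma3.S at 3.34 mRNA TPM, beside 61.7 for its homeolog psma3.L.

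Of the specialised forms, immunoproteasome entries were low and the alternative caps ranged widely. The immunoproteasome beta subunits, which replace the standard catalytic ones in immune cells, averaged 4.13 mRNA TPM for psmb8.L and 1.24 for psmb9.S in NI Ctrl, and psmb11.L, a thymus form in mammals, did not pass 0.0894 in any library. Over all groups psmb8.L averaged 1.98 mRNA TPM in the libraries of biological replicate 1 and 6.79 in those of biological replicate 2, and psmb9.S averaged 2.09 and 0.54; these levels come from separate tables and were not tested. Of the alternative caps, psme3.L averaged 82.4 mRNA TPM, psme3.S 76.0 and psme4.L 46.5, against 21.5 for psme1.S, 5.26 for psme1.L and 3.31 for psme2.L. Of the chaperones, psmd5.L was the highest at 45.3 mRNA TPM, while psmg3.S reached at most 0.292 in any library beside 8.34 for psmg3.L in NI Ctrl. A mean of at least 1 mRNA TPM in the libraries of each biological replicate was asked for before testing, and 78 of the 83 entries passed. The entries left out were psmb11.L, psmb7.2.L, psmg3.S, psmg4.L and psmb9.S.

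The first comparison asked how the proteasome genes changed between 5.5 and 7.5 hpf. On the mRNA TPM scale 54 of 78 entries were lower at 7.5 hpf in NI Ctrl embryos and 8 were higher, by limma on log2(mRNA TPM + 1) with Benjamini-Hochberg adjustment over all 16955 tested genes and a threshold of 0.05. Over all tested genes 81.5% were called lower and 8.72% higher, with a median log2 change of -0.67, against -0.43 for the proteasome entries. The direction depends on the scaling. When each library was centred on its median gene, 43 proteasome entries were higher and 11 lower (33.9% and 30.1% of all genes), and on deposited TPM 2 were higher and 66 lower (13.9% and 77.7% of all genes). A log2 change above -0.67 thus stood above that of the median gene.

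More entries, and more of all genes, were called in the second hour than in the first. Between 5.5 and 6.5 hpf, 3 entries rose and 9 fell (3.51% and 13.7% of all genes), and between 6.5 and 7.5 hpf, 7 rose and 51 fell (7.43% and 79.9% of all genes). Between 5.5 and 7.5 hpf, Kmt2b MO had 9 entries higher and 49 lower (8.89% and 80.1% of all genes), Cxxc1 MO had 6 and 57 (7.93% and 82.8%), and Ctrl MO had 7 and 53 (8.46% and 82.6%). Of the entries, 5 were called higher in all 4 groups (psma1.L, psmb6.L, psmb6.S, psmd4.S and psme1.S) and 47 were called lower in all 4 (6.91% and 77.1% of all genes), and 0 were called in opposite directions in different groups.

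**Figure D1:**
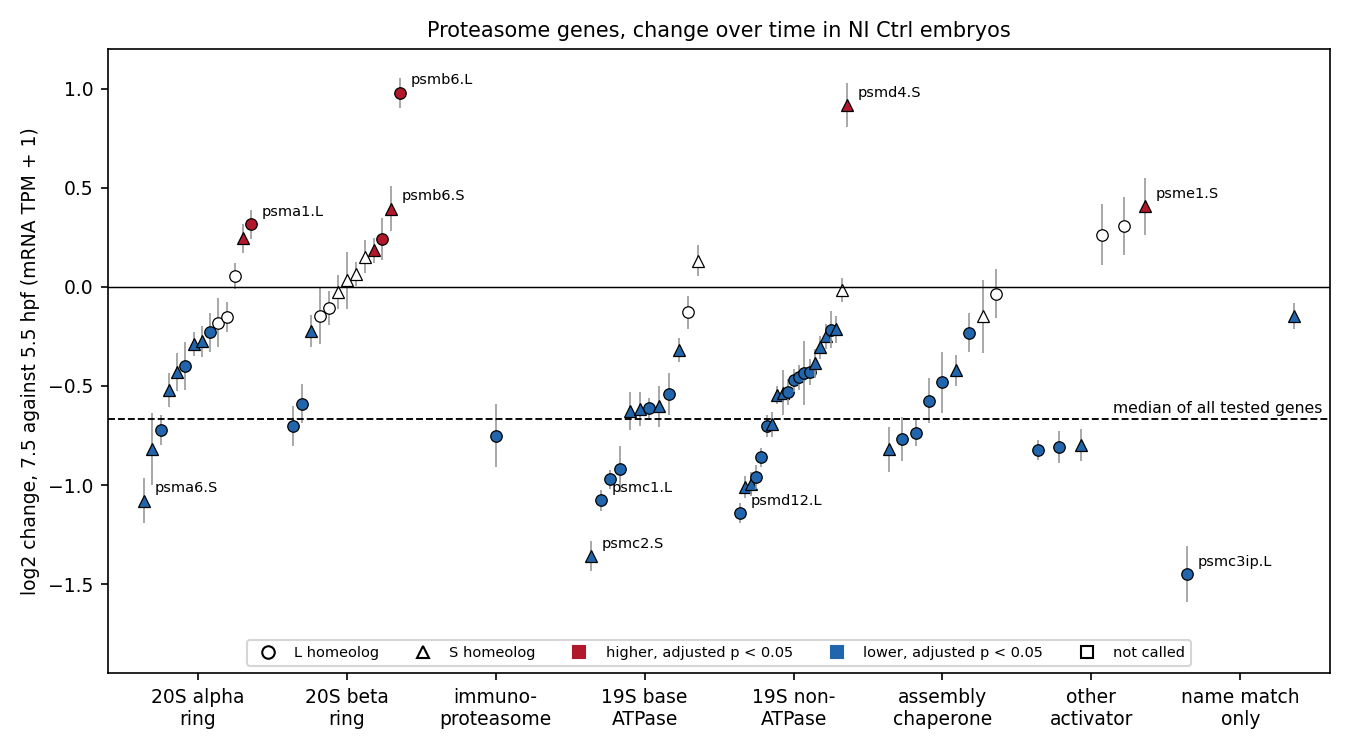
Log2 change of each tested proteasome entry between 5.5 and 7.5 hpf in NI Ctrl embryos, by class of subunit, with bars for the standard error of the fit; circles are L and triangles S homeologs, red (higher) or blue (lower) where the adjusted p is under 0.05 and white where not. The beta ring lies highest with a median of 0.03 and the base ATPases lowest among the large classes with -0.61. The dashed line marks the median of all genes at -0.67. With libraries centred on that median, 43 of the 78 entries were higher and 11 lower (33.9% and 30.1% of all genes).

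By part of the complex, the counts ran as follows on the mRNA TPM scale, where 8.72% of all genes rose and 81.5% fell. In the 20S beta ring, 4 of 13 entries rose and 3 fell, with a median log2 change of 0.03. In the alpha ring, 2 of 14 rose and 9 fell, with a median of -0.28. In the 19S cap, 0 of 12 base ATPases rose and 10 fell, with a median of -0.61, and 1 of 21 non-ATPase subunits rose and 19 fell, with a median of -0.47. Of 9 assembly chaperones 0 rose and 7 fell (median -0.48), and of 6 other activators 1 rose and 3 fell (median -0.27). No test of the difference between classes was run. With libraries centred on the median gene 11 beta ring entries were higher and 0 lower, against 3 and 3 of the base ATPases. With that centring 33.9% of all genes were higher and 30.1% lower. In summed level, the beta ring had medians of 745, 794 and 815 mRNA TPM at 5.5, 6.5 and 7.5 hpf, and the base ATPases 422, 380 and 274. The beta ring entry psmb6.L alone averaged 88.7 mRNA TPM at 5.5 hpf and 178 at 7.5 hpf. That is a larger rise than the rise of the summed median. The ranges of the 6 libraries at 5.5 and 7.5 hpf overlapped for the beta ring (723 to 782 and 765 to 891) and were apart for the ATPases (402 to 446 and 258 to 283).

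The largest rise was that of psmb6.L (chromosome 3L, 156513088 to 156520473), which encodes the beta subunit with caspase-like activity. In NI Ctrl it measured 88.6, 89.1 and 93.6 mRNA TPM at 5.5 hpf in biological replicate 1, then 84.0, 84.5 and 92.7 in the other frog. At 6.5 hpf the 6 libraries lay between 110 and 130. At 7.5 hpf it measured 193, 205 and 216 in biological replicate 1, then 146, 149 and 160 in the other frog. The 3 times did not overlap, and at 7.5 hpf neither did the frogs. The log2 change was 0.98 ± 0.08 (SE of the fit, n = 6 libraries per time, limma adjusted p = 1.31e-10).

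psmd4.S (chromosome 8S, 103089816 to 103101256), which encodes a ubiquitin receptor of the cap, rose by 0.92 ± 0.11 on the same scale. It measured 43.2 to 58.1 mRNA TPM in NI Ctrl at 5.5 hpf, 57.2 to 99.1 at 6.5 hpf and 86.7 to 110 at 7.5 hpf. At 6.5 hpf the frogs stood apart, with 57.2, 65.3 and 66.8 in biological replicate 1, then 83.3, 97.2 and 99.1 in the other frog. Smaller rises were measured for psme1.S (0.41), psmb6.S (0.40), psma1.L (0.32), psma2.S (0.24), psmb2.L (0.24) and psmb2.S (0.18).

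The largest fall of a subunit was that of psmc2.S (chromosome 3S, 72815349 to 72829212), a base ATPase. It lay between 25.0 and 31.9 mRNA TPM in NI Ctrl at 5.5 hpf, between 16.3 and 24.3 at 6.5 hpf and between 10.0 and 11.9 at 7.5 hpf, a log2 change of -1.36 ± 0.08. psmd12.L (chromosome 9_10L, 54174845 to 54186296), a structural subunit of the cap's lid, had medians of 81.8, 70.8 and 36.3 mRNA TPM at the 3 times and changed by -1.14 ± 0.05. The 5.5 and 7.5 hpf libraries of both genes did not overlap. psma6.S (alpha ring, -1.08), psmc1.L (ATPase, -1.08), psmd11.S (lid, -1.01) and psmd2.S (a scaffold of the cap that binds ubiquitin-like domains, -0.995) followed, and psmc3ip.L, which is not a subunit and acts in meiotic recombination in mammals, fell by 1.45.

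**Figure D2:**
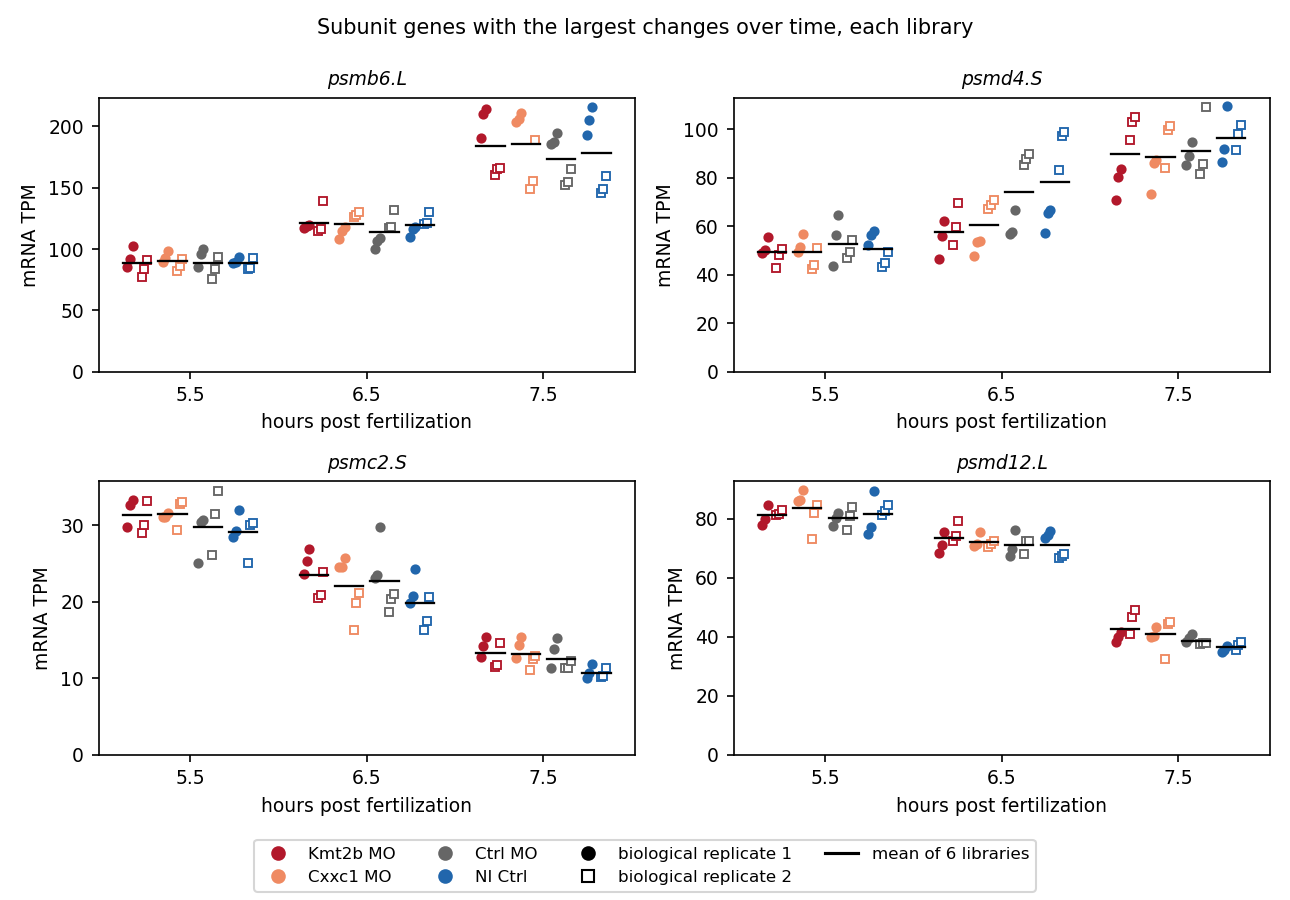
mRNA TPM of psmb6.L, psmd4.S, psmc2.S and psmd12.L in each of the 72 libraries by time and injection group (filled circles, biological replicate 1; open squares, biological replicate 2; line, mean of 6 libraries). psmb6.L ran from 146 to 216 in NI Ctrl at 7.5 hpf, and psmd4.S was lower in Kmt2b MO than in Ctrl MO at 6.5 hpf.

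L and S copies were compared within each NI Ctrl library, since TPM is per length. Reads of near-identical homeologs can be shared between them in the counting, so single ratios carry that uncertainty. Among 33 pairs with both copies tested, L was higher in 15 and S in 17 by limma on the log2 ratio (49.8% and 44.8% of 4416 pairs over the genome). psmd8 was the pair not called, with 105 mRNA TPM for psmd8.L and 107 for psmd8.S. The ratio leaned most to L for psma3 (log2 ratio 3.89 ± 0.07, SE), psmc4 (1.83) and psmb6 (1.69), and most to S for psme1 (-1.84), psmd4 (-1.65) and psma5 (-1.22).

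The ratio itself changed between 5.5 and 7.5 hpf in 17 of the 33 pairs. It moved toward L in 6 and toward S in 11 (24.8% and 23.6% of all pairs). psmd4 moved furthest toward S, by -1.14 ± 0.12 (limma adjusted p = 1.35e-06): psmd4.S averaged 50.8 and 96.6 mRNA TPM at 5.5 and 7.5 hpf while psmd4.L averaged 23.2 and 20.0. psmd12 (-0.89), psmb7 (-0.74) and psmb4 (-0.68) moved the same way. psma1 moved furthest toward L, by 0.84 ± 0.09, with psma1.L at 52.5 and 65.9 mRNA TPM at the 2 times and psma1.S at 24.1 and 16.6. psma6 (0.68), psmd9 (0.59) and psmb6 (0.59) also moved toward L. Both copies of psmd2, psme3 and psmd8 fell, and the changes of these ratios were between -0.01 and 0.07 and not called.

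**Figure D3:**
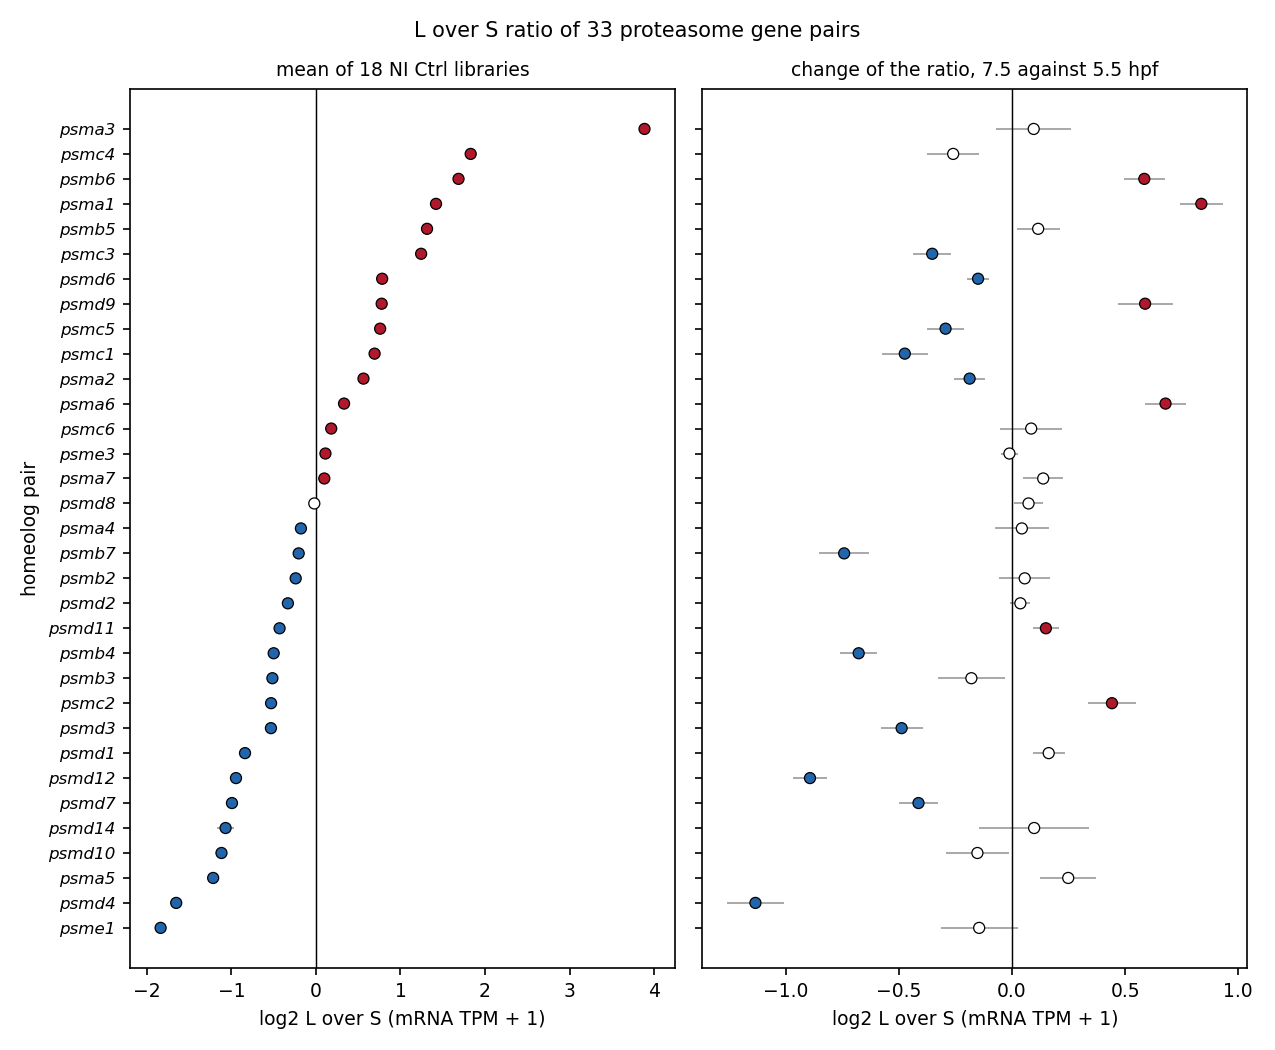
Log2 ratio of L over S for 33 proteasome gene pairs in NI Ctrl, left as the mean over 18 libraries and right as its change between 5.5 and 7.5 hpf, with standard errors; filled points have an adjusted p under 0.05 (red toward L, blue toward S). psma3 has the highest ratio at 3.89 and psmd4 the largest change at -1.14.

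The next comparisons asked what the morpholinos did to proteasome mRNAs. In Kmt2b MO against Ctrl MO, 8 entries were higher and 1 lower at 5.5 hpf (1.46% and 0.218% of all genes), 5 and 2 at 6.5 hpf (2.19% and 1.36%), and 10 and 1 at 7.5 hpf (5.15% and 1.57%). In Cxxc1 MO against Ctrl MO, 4 were higher and 0 lower at 5.5 hpf (0.484% and 0.0413%), 6 and 1 at 6.5 hpf (1.1% and 0.896%), and 2 and 0 at 7.5 hpf (1.29% and 0.955%). For the counts of 0 lower, 3 entries had an unadjusted p under 0.05 at either time. The median log2 difference over the 78 entries lay between 0.00 and 0.12 in these 6 comparisons, against -0.02 to 0.03 over all genes. Both knockdowns were compared with the same Ctrl MO libraries, so they are not independent of each other.

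The calls came from 16 entries. Without the second Ctrl MO set of biological replicate 1 or the first Kmt2b MO set of biological replicate 2, the 9 calls of Kmt2b MO at 5.5 hpf became 5. The 4 calls of Cxxc1 MO at 5.5 hpf became 2 without any one of 5 libraries, namely set 2 of Cxxc1 MO in either biological replicate, set 2 of Ctrl MO in either, or set 3 of Ctrl MO in biological replicate 1. At 7.5 hpf the Kmt2b MO embryos of biological replicate 2 had a higher sum over all proteasome entries (3408 to 3565 mRNA TPM) than Ctrl MO (2922 to 3251), whereas in biological replicate 1 the sums overlapped (3006 to 3107 in Kmt2b MO, 2884 to 3040 in Ctrl MO). Tested alone, biological replicate 1 gave 3 entries higher (0.277% of all genes), whereas biological replicate 2 gave 15 higher and 1 lower (6.23% and 1.19% of all genes), so that more of all genes were called in that frog too. The test of the difference between frogs called 0 entries, with 1 and 13 at an unadjusted p under 0.05 higher and lower in biological replicate 1 than in biological replicate 2. The share of all genes in that test is not given here, so these counts cannot be read as particular to proteasome entries.

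**Figure D4:**
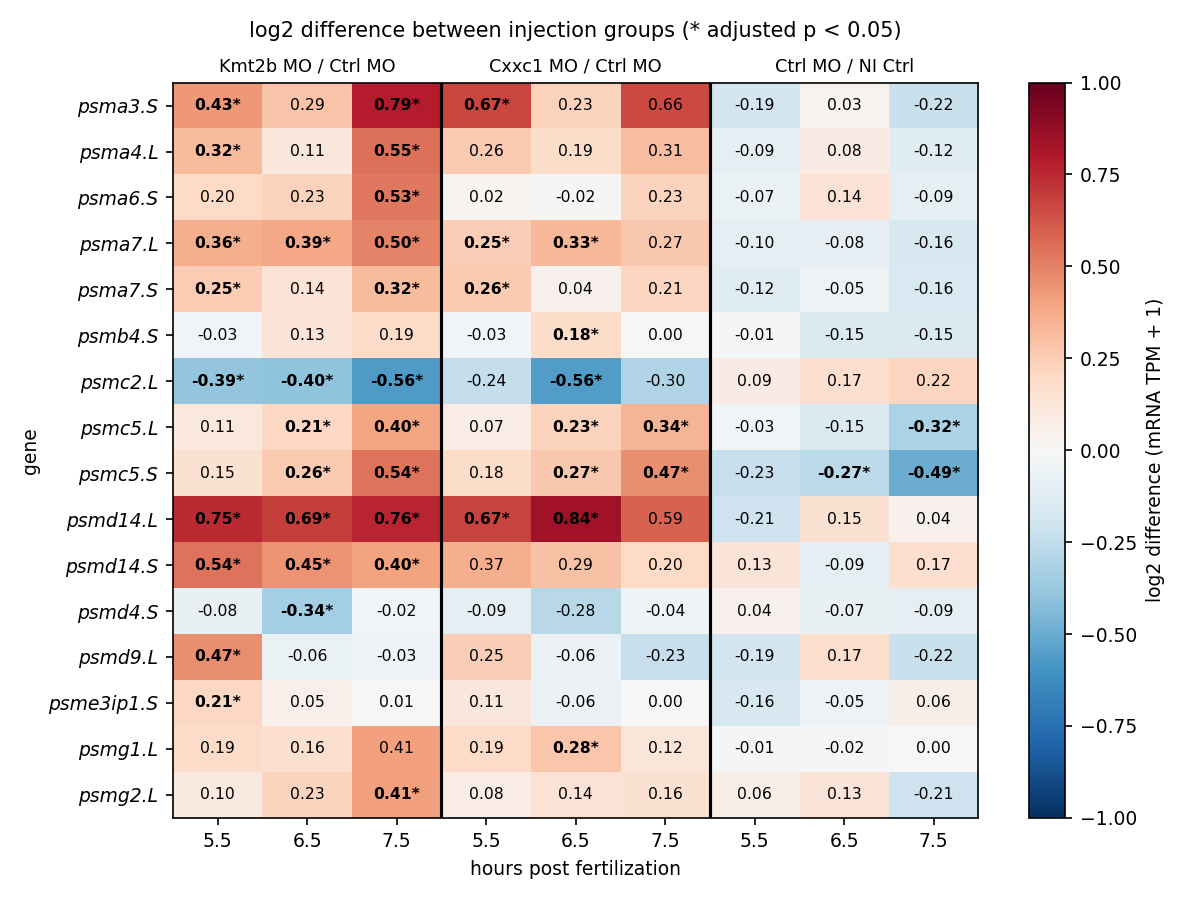
Log2 difference between injection groups for the 16 proteasome entries called in Kmt2b MO or Cxxc1 MO against Ctrl MO, at 5.5, 6.5 and 7.5 hpf, with Ctrl MO against NI Ctrl beside them; stars mark an adjusted p under 0.05. psmd14.L lies between 0.59 and 0.84 in the knockdowns, psmc2.L is below 0 in all 6 knockdown columns, and the psmc5 copies are higher in the knockdowns at 6.5 and 7.5 hpf and lower in Ctrl MO than in NI Ctrl.

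psmd14 encodes the deubiquitinase of the cap, which cuts the ubiquitin chain off a substrate. psmd14.L (chromosome 9_10L, 72036968 to 72089792) at 6.5 hpf measured 8.63, 13.0 and 14.4 mRNA TPM (biological replicate 1), then 3.57, 3.59 and 7.27 (biological replicate 2), in Kmt2b MO. The Cxxc1 MO values were 10.9, 11.5 and 11.6, then 5.55, 6.03 and 6.77. The Ctrl MO values were 3.62, 5.50 and 6.87, then 2.68, 3.82 and 3.87. Within each frog the Cxxc1 MO and Ctrl MO values did not overlap, while Kmt2b MO overlapped with Ctrl MO in biological replicate 2.

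The log2 difference of psmd14.L from Ctrl MO was 0.75, 0.69 and 0.76 in Kmt2b MO at 5.5, 6.5 and 7.5 hpf (limma adjusted p = 0.00908, 0.0172 and 0.00960) and all 6 Kmt2b MO libraries were above the Ctrl MO mean of their frog each time. In Cxxc1 MO it was 0.67, 0.84 and 0.59, in 5, 6 and 5 of 6 libraries (limma adjusted p = 0.0482, 0.00601 and 0.102). The call in Cxxc1 MO at 5.5 hpf was lost in 20 of 24 fits that left out 1 library. The difference was larger in biological replicate 1, at 1.04 for Kmt2b MO at 5.5 hpf against 0.45 in biological replicate 2. psmd14.S was also higher in Kmt2b MO at every time, by 0.54, 0.45 and 0.40, with 18.3, 14.4 and 11.3 mRNA TPM in Kmt2b MO and 12.1, 10.3 and 8.54 in Ctrl MO. At 6.5 hpf its call was lost in 5 of 24 fits that left out 1 library. It was also lost on deposited TPM, without the filter and with NI Ctrl as control. That of psmd14.L in Kmt2b MO at 6.5 hpf was lost in 3 of 24 such fits. At 7.5 hpf the Kmt2b MO calls of both copies were lost on deposited TPM. That of psmd14.L was also lost in biological replicate 2 alone, and that of psmd14.S in biological replicate 1 alone. At 5.5 hpf both were lost in either biological replicate alone. psmd14.L, psmd14.S and psma7.L were the entries higher in Kmt2b MO at all 3 times. In Cxxc1 MO psmd14.S was not called against Ctrl MO at any time. Against NI Ctrl it was called higher in Cxxc1 MO at 5.5 hpf (0.49) and 7.5 hpf (0.37).

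psma7 encodes an alpha ring subunit. psma7.L (chromosome 9_10L, 15030855 to 15036388) at 5.5 hpf measured 71.6, 72.9 and 76.1 mRNA TPM, then 74.6, 75.6 and 78.4, in Kmt2b MO embryos of the 2 frogs. Ctrl MO embryos had 54.4, 54.4 and 60.6, then 54.9, 59.9 and 64.7. No value of Kmt2b MO was as low as any of Ctrl MO. The log2 difference was 0.36 ± 0.05 at 5.5 hpf, 0.39 ± 0.06 at 6.5 hpf and 0.50 ± 0.08 at 7.5 hpf (limma adjusted p = 0.000115, 0.000166 and 9.87e-05). In Cxxc1 MO it was 0.25, 0.33 and 0.27, called at the first 2 times.

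Other alpha ring entries were higher in Kmt2b MO at 5.5 and 7.5 hpf. At 7.5 hpf 5 of 14 alpha ring entries and 0 of 13 beta ring entries were called. Of all genes, 5.15% were called higher and 1.57% lower. The median log2 difference was 0.24 in the alpha ring and 0.19 in the beta ring, where 7 entries were higher at an unadjusted p under 0.05 by limma, and the difference between the rings was not tested. psma4.L measured 42.2, 46.6 and 52.2 mRNA TPM, then 51.4, 57.7 and 59.8, in Kmt2b MO, against 37.9, 40.3 and 40.8, then 29.4, 30.7 and 31.4, in Ctrl MO. The groups did not overlap in either frog, and the gap was wider in biological replicate 2 (0.86 against 0.23). psma6.S differed by 0.53, psma3.S by 0.79, psma7.S by 0.32 and the chaperone psmg2.L by 0.41. For psma7.S the limma adjusted p was 0.0454, the groups overlapped in 1 frog, and it was not called against NI Ctrl. In biological replicate 1 alone, psma4.L, psma6.S, psma7.L and psmg2.L were not called. psma3.S averaged 3.49 mRNA TPM in Kmt2b MO and 1.66 in Ctrl MO, where the log2(mRNA TPM + 1) scale understates a change. Among the ATPases and the cap at that time, psmc5.L, psmc5.S, psmd14.L and psmd14.S were higher. psma3.S, psma7.S and psmc5.L at that time were named after their values were seen. At 5.5 hpf the chaperone psmd9.L was higher by 0.47 in Kmt2b MO, with 0.77 in biological replicate 1 against 0.16 in the other frog, and psme3ip1.S by 0.21. The alpha ring entries psma3.S (0.43), psma4.L (0.32) and psma7.S (0.25) were also called higher in Kmt2b MO at 5.5 hpf (1.46% of all genes). These calls were all lost on deposited TPM, in each biological replicate alone and with NI Ctrl as control. Leaving out 1 library lost psma3.S in 14 of 24 fits, psma4.L in 1 and psma7.S in 0. In Cxxc1 MO, psma3.S (0.67) and psma7.S (0.26) were higher at 5.5 hpf. At 6.5 hpf psmb4.S, a beta ring subunit (0.18), and the chaperone psmg1.L (0.28) were higher in Cxxc1 MO. At 5.5 hpf psma3.S averaged 6.41 mRNA TPM in Cxxc1 MO and 3.66 in Ctrl MO. Its call in Cxxc1 MO was kept in every fit that left out 1 library. It was lost in each biological replicate alone and with NI Ctrl as control. In fits that left out 1 library, the call of psmd9.L was lost in 8 of 24, psma7.S in Cxxc1 MO in 6, psmb4.S in 9 and psmg1.L in 18, and all 4 were also lost on deposited TPM, without the filter and with NI Ctrl as control.

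psmc2.L (chromosome 3L, 83902055 to 83911130), the L copy of the ATPase whose S copy fell most over time, was called lower in the knockdowns. At 6.5 hpf it measured 9.94, 9.99 and 10.8 mRNA TPM, then 11.4, 12.9 and 13.1, in Kmt2b MO. In Cxxc1 MO it measured 9.35, 9.66 and 9.98, then 9.35, 9.86 and 12.3. In Ctrl MO it measured 14.1, 16.4 and 16.5, then 13.9, 15.0 and 15.7. Every knockdown library was below every Ctrl MO library. The log2 difference was -0.40 ± 0.08 in Kmt2b MO and -0.56 ± 0.08 in Cxxc1 MO (limma adjusted p = 0.00281 and 0.000133).

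psmc2.L was also lower in Kmt2b MO at 5.5 hpf (-0.39) and 7.5 hpf (-0.56). The values for Cxxc1 MO at these times were -0.24 and -0.30 and not called. The call at 5.5 hpf was lost in 12 of 24 fits that left out 1 library. The other entry called lower was psmd4.S in Kmt2b MO at 6.5 hpf (-0.34 ± 0.08), with 46.4, 56.0 and 62.2 mRNA TPM, then 52.3, 59.8 and 69.5, in Kmt2b MO and 56.7, 57.6 and 66.9, then 85.2, 87.7 and 89.8, in Ctrl MO. The groups overlapped in biological replicate 1 only, and at 5.5 and 7.5 hpf its difference was -0.08 and -0.02. In Cxxc1 MO psmd4.S was not called against Ctrl MO at 6.5 hpf. Against NI Ctrl at that time it was called lower in both Cxxc1 MO (-0.35) and Kmt2b MO (-0.41).

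The comparison of Ctrl MO with NI Ctrl asked what injection of the control morpholino did by itself. At 5.5 hpf 0 entries were higher and 0 lower (0.0354% and 0% of all genes), with 2 and 6 at an unadjusted p under 0.05 by limma. At 6.5 hpf 0 were higher and 1 lower (0.0295% each), and at 7.5 hpf 0 were higher and 2 lower (0.0354% and 0.0767%). For the 0 higher, 4 entries had an unadjusted p under 0.05 at either time. The entries called were both copies of psmc5, a base ATPase.

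psmc5.S (chromosome 9_10S, 6840826 to 6851701) at 7.5 hpf measured 27.3, 30.1 and 30.8 mRNA TPM, then 30.7, 31.2 and 32.0, in Kmt2b MO. Cxxc1 MO had 27.4, 28.6 and 33.7, then 26.8, 27.8 and 29.0. Ctrl MO had 20.4, 20.7 and 22.4, then 18.8, 19.2 and 21.9, and NI Ctrl had 27.7, 29.4 and 33.0, then 27.0, 29.3 and 29.9. The Ctrl MO libraries lay below all others in both frogs. The other 3 groups overlapped in biological replicate 1. In biological replicate 2 the Kmt2b MO libraries lay above those of Cxxc1 MO and NI Ctrl, which overlapped.

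psmc5.S was thus higher than Ctrl MO by 0.54 ± 0.06 in Kmt2b MO and by 0.47 ± 0.06 in Cxxc1 MO, and Ctrl MO was below NI Ctrl by -0.49 ± 0.06 (limma adjusted p = 2.93e-06, 4.02e-05 and 0.000116). Against NI Ctrl the difference was 0.05 in Kmt2b MO (95% interval -0.08 to 0.17) and -0.03 in Cxxc1 MO (-0.15 to 0.10). psmc5.L (chromosome 9_10L, 7350984 to 7361900) gave 0.40 and 0.34 for the knockdowns against Ctrl MO, and -0.32 for Ctrl MO against NI Ctrl. Against NI Ctrl it gave 0.08 in Kmt2b MO (-0.05 to 0.20) and 0.02 in Cxxc1 MO (-0.11 to 0.15).

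At 6.5 hpf psmc5.S differed by 0.26 in Kmt2b MO and 0.27 in Cxxc1 MO from Ctrl MO, and by -0.27 between Ctrl MO and NI Ctrl, a call that was lost without any one of 6 libraries (sets 1 and 3 of biological replicate 1 and set 3 of biological replicate 2, in Ctrl MO and in NI Ctrl), which left 0 entries called. At 7.5 hpf the call for psmc5.L in Ctrl MO against NI Ctrl was lost without any one of 9 libraries (in biological replicate 1, all 3 Ctrl MO sets and set 1 of NI Ctrl; in biological replicate 2, sets 1 and 3 of Ctrl MO and all 3 NI Ctrl sets), which left 1 entry called, and on deposited TPM neither copy was called (0 entries). With NI Ctrl as the control, neither copy was called in either knockdown at 6.5 or 7.5 hpf.

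With NI Ctrl in place of Ctrl MO, 14 named knockdown calls stayed called, 19 were no longer called and 3, all of psmc5.S, changed sign. Those no longer called included psmd14.L at 5.5 hpf in Kmt2b MO (0.54) and Cxxc1 MO (0.47), psmc2.L in Kmt2b MO at 5.5 hpf (-0.31) and 6.5 hpf (-0.24), psmd14.S in Kmt2b MO at 6.5 hpf (0.36), psma7.L and psma7.S in Cxxc1 MO at 5.5 hpf (0.15 and 0.14) and psmg2.L in Kmt2b MO at 7.5 hpf (0.20). Of those that stayed called in Kmt2b MO at 7.5 hpf, psmd14.L was higher by 0.80, psma7.L was higher by 0.33 and psmc2.L was lower by -0.35. psmd14.L in Cxxc1 MO at 7.5 hpf, which was not called against Ctrl MO, was higher than NI Ctrl by 0.63 and called. Ctrl MO and NI Ctrl differed by 0.04 for psmd14.L (95% interval -0.33 to 0.42), -0.16 for psma7.L (-0.32 to -0.01) and 0.22 for psmc2.L (-0.02 to 0.45) at 7.5 hpf, none of them called.

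**Figure D5:**
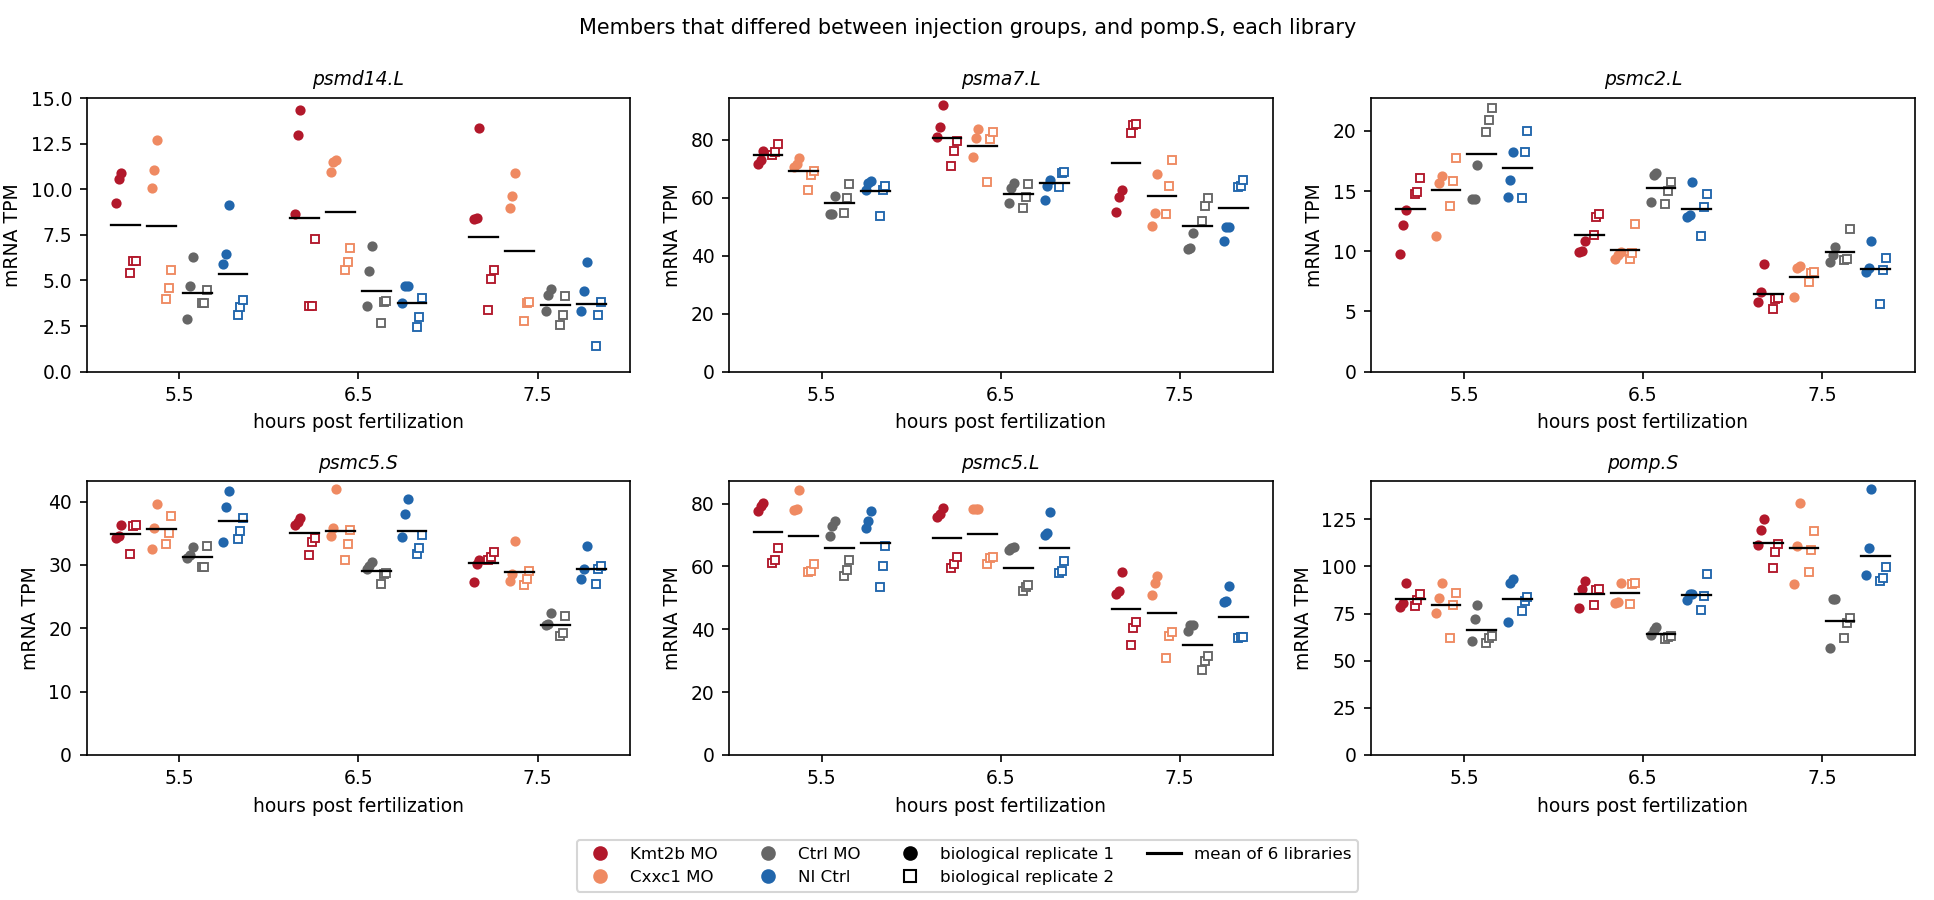
mRNA TPM of psmd14.L, psma7.L, psmc2.L, psmc5.S, psmc5.L and pomp.S in each of the 72 libraries, by time and injection group (filled circles, biological replicate 1; open squares, biological replicate 2; line, mean of 6 libraries). At 7.5 hpf psmc5.S lies between 18.8 and 22.4 in Ctrl MO, below all libraries of the other 3 groups, and pomp.S between 56.7 and 83.0, also below all of them.

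The change of a knockdown difference between 5.5 and 7.5 hpf was tested as well. For Kmt2b MO against Ctrl MO, 2 entries had a difference that was higher at 7.5 hpf and 0 a lower one (0.56% and 0.295% of all genes; 2 entries were lower at an unadjusted p under 0.05). These were psmc5.S (0.39 ± 0.08) and psmc5.L (0.29 ± 0.06).

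Other genes of the ubiquitin and proteasome pathway were taken from a list of 31 symbols, of which 49 entries were tested. Between 5.5 and 7.5 hpf in NI Ctrl 5 rose and 41 fell (8.72% and 81.5% of all genes). The median of the 49 entries was -0.64, close to the median of all genes. The largest falls were those of zfand5.S (-1.84) and zfand5.L (-1.65), a stress-responsive activator of the proteasome, ddi2.L (-1.33) and ddi2.S (-1.05), the protease that activates the transcription factor nfe2l1, nfe2l1.L itself (-1.11), which drives proteasome gene transcription in mammals, and usp14.S (-1.03), a deubiquitinase of the cap. Among the entries that rose were pomp.L (0.93) and pomp.S (0.33), encoding the chaperone on which the beta ring is built, and rps27a.L (0.69) and rps27a.S (0.26), which encode ubiquitin fused to a ribosomal protein.

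In Kmt2b MO against Ctrl MO at 7.5 hpf, 7 entries of that list were higher and 1 lower (5.15% and 1.57% of all genes). In Cxxc1 MO 3 were higher and 1 lower (1.29% and 0.955% of all genes). adrm1.S (0.53) and adrm1.L (0.36), a ubiquitin receptor of the cap, and nfe2l1.L (0.43) were higher in Kmt2b MO, and the polyubiquitin gene ubb.L was lower in Kmt2b MO (-0.32) and Cxxc1 MO (-0.27). The adrm1 copies and ubb.L were named outside the rule set for this list. No fits that left out 1 library or used 1 frog alone are given for these calls.

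pomp.S, singled out after its values were seen, was also lowest in Ctrl MO. At 7.5 hpf it measured 99.3 to 125 mRNA TPM in Kmt2b MO, 90.8 to 134 in Cxxc1 MO, 56.7 to 83.0 in Ctrl MO and 92.1 to 141 in NI Ctrl. Ctrl MO did not overlap with the other groups. The difference was 0.66 in Kmt2b MO and 0.62 in Cxxc1 MO against Ctrl MO, and -0.55 ± 0.10 in Ctrl MO against NI Ctrl (limma adjusted p = 5.04e-05, 0.000298 and 0.00834). For its homeolog pomp.L the differences, none of them called, were -0.01, -0.06 and -0.02.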

How the data were processed

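RNA-seq was measured in 72 libraries of whole embryos. Per the labels and methods, paired reads were assigned by the authors to transcripts of assembly v10.1 by pseudoalignment (kallisto 0.48), after which they summed isoforms per gene and deposited TPM, in a table per biological replicate; their own test, in DESeq2 1.42.1 (R 4.3.2), was not repeated because the deposited values are not counts. TPM keeps no read depth, so precision rests on the spread between libraries.

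TPM was rescaled in each library to 1000000 over protein-coding genes (RefSeq biotype by symbol, 38926 of 39668 entries matched; 2323 entries carry a repeated name, none of them a proteasome gene). Genes with a mean of at least 1 in both biological replicates (16955) were tested on log2(value + 1) with limma 3.58.1 (lmFit, eBayes with trend, R 4.3.3), with biological replicate as a covariate, so that differences were taken within a table. Knockdowns were fitted over the 24 libraries of a time point and times over the 18 libraries of a group. Homeolog ratios were fitted on 18 NI Ctrl libraries. Adjusted p-values are Benjamini-Hochberg over all genes or pairs tested. Simulated data with independent noise were used only for the comparison of Kmt2b MO with Ctrl MO at the last time point, and the outcome is not given here. The tests of time, of homeolog ratios, of the change of a difference and of frogs were not checked in this way.

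The proteasome entries, the other lists and the tests were chosen with earlier results of these data known. Named entries are, for each comparison, up to 8 called with the largest change, at least 5 TPM in 1 group and the same direction in both biological replicates, and for each class those highest and lowest in NI Ctrl, with all immunoproteasome and activator entries. Of the related list, the rule took the entries with the largest change over time in NI Ctrl. Other entries of that list were named outside it. Alternatives were deposited TPM, median centring, a pseudocount of 0.1, no filter, each biological replicate alone, a replicate block, leaving out each library and, added after seeing the data, NI Ctrl as control. No sequences were used here. The values of 1 entry of the related list are not reported here.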

Additional observations from a re-analysis of the deposited data

Results flagged for a closer look

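Both copies of the ATPase gene psmc5 were marked because the difference between Kmt2b MO and Ctrl MO changed between 5.5 and 7.5 hpf by a test of the change itself. The change was 0.388 ± 0.08 for psmc5.S and 0.2891 ± 0.06 for psmc5.L on the log2 scale (SE; limma adjusted p = 0.00298 and 0.0120). In Cxxc1 MO the same changes were 0.29 and 0.27 and were not called (limma adjusted p = 0.128 and 0.0790). Ctrl MO was below NI Ctrl at 7.5 hpf by -0.49 for psmc5.S and -0.32 for psmc5.L, and by -0.23 and -0.03, not called, at 5.5 hpf. The part of the Ctrl MO level in the change was not tested. Groups of 3 libraries were not searched for single outlying libraries.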

How the results depend on the processing

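Over time in NI Ctrl, centring on the median gene turned 8 entries higher and 54 lower into 43 and 11, and deposited TPM gave 2 and 66. In the other comparisons the number of entries called moved as follows. On deposited TPM, Kmt2b MO against Ctrl MO at 5.5 hpf had 3 calls in place of 9, Cxxc1 MO had 1 in place of 4 at 5.5 hpf and 1 in place of 2 at 7.5 hpf, and Ctrl MO against NI Ctrl had 0 in place of 1 at 6.5 hpf and 0 in place of 2 at 7.5 hpf. Without the filter, Kmt2b MO had 4 at 5.5 hpf and 4 in place of 7 at 6.5 hpf, Cxxc1 MO had 2 at 5.5 hpf, and Ctrl MO against NI Ctrl had 2 at 6.5 hpf; more genes share the adjustment there. With biological replicate 1 alone, which holds fewer libraries, Kmt2b MO had 2, 3 and 3 calls at the 3 times (11 at 7.5 hpf with both), Cxxc1 MO 0 at 5.5 hpf and 1 in place of 7 at 6.5 hpf, and Ctrl MO against NI Ctrl 0 at 6.5 and 0 at 7.5 hpf. With biological replicate 2 alone, Kmt2b MO had 0 at 5.5 and 1 at 6.5 hpf, Cxxc1 MO 0, 1 and 1, and Ctrl MO against NI Ctrl 0 at 6.5 and 1 at 7.5 hpf. With NI Ctrl as control, Kmt2b MO had 3 at 5.5 hpf and Cxxc1 MO 1, 4 and 5. The 5 in Cxxc1 MO at 7.5 hpf were other entries than those called against Ctrl MO. Of them psmc2.S, psmd14.L and psmd14.S were higher, and psma2.L (-0.32) and psmd9.L (-0.46) were lower. With that control psmc5.S turned to -0.01058 in Kmt2b MO at 6.5 hpf, -0.0004795 in Cxxc1 MO at 6.5 hpf and -0.02592 in Cxxc1 MO at 7.5 hpf, none called. Shares of all genes for the counts of this paragraph are given only where stated above. For the other changes the cause was not tested.

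Leaving out each library in turn gave 5 to 9 calls for Kmt2b MO at 5.5 hpf, 5 to 8 at 6.5 hpf and 10 to 13 at 7.5 hpf. It gave 2 to 4, 5 to 8 and 2 to 3 for Cxxc1 MO, 0 to 0, 0 to 1 and 1 to 2 for Ctrl MO against NI Ctrl, and 58 to 63 for the change over time in NI Ctrl. Of 47 named combinations of gene and comparison, 35 were called in every such fit. Among the 39 of them that compared injection groups, the number was 27. It is not stated whether sets with the same number belong together. Of 108 such pairs across injection groups, 28 correlated above 0.1 after group means were removed. Their mean correlation by time point and frog ran from -0.0100 to 0.0698. For sets with different numbers it ran from -0.0347 to 0.00502. With the number as a replicate block, no count moved by over 1.5 times (Kmt2b MO at 7.5 hpf had 9 entries higher and 1 lower), and 2 named calls were lost, psmc2.L in Kmt2b MO and psmd14.L in Cxxc1 MO at 5.5 hpf. Read depth is unknown, so limits from counting could not be set.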
